A study of Danio rerio with 7 samples.

Results

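The Fgf receptors of the zebrafish hindbrain were followed by taking every gene of the deposited table named fgfr1a, fgfr1b, fgfr2, fgfr3, fgfr4, fgfrl1a or fgfrl1b. Of these 7 genes, 5 could be tied to a single ID among the 32189 IDs of the table. They were fgfr2 (ENSDARG00000058115), fgfr3 (ENSDARG00000004782), fgfr4 (ENSDARG00000069105), fgfrl1a (ENSDARG00000032617) and fgfrl1b (ENSDARG00000052556). The fgfrl1a ID carried the symbol FGFRL1 without a letter, and was taken as fgfrl1a because fgfrl1b had an ID of its own. The genes fgfr1a and fgfr1b shared the symbol FGFR1 over ENSDARG00000011027 and ENSDARG00000011190, which could not be told apart by name. These 2 IDs are therefore shown beside the 5 genes and counted apart from them.

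Bulk RNA-seq had been carried out on single dissected hindbrains at 24 hpf, from embryos raised at 28.5 °C, to find genes that depend on Fgf20a, a ligand made by neurons at segment centres. The 4 Cnt libraries were wild type (LondonAB), and the 3 Fgf20aHOM libraries were homozygous for the dob mutation of fgf20a. The mutants came from crosses between homozygous parents with no wild-type siblings among the samples, so genotype and fish line cannot be told apart. The labels describe the tissue as hindbrain with surrounding tissues, and the authors checked the dissections by qPCR. Each library is 1 embryo, and the mutant libraries are named F2, F3 and F4 after the columns of the table.

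Fgf receptors are cell surface proteins with immunoglobulin-like domains outside the cell and a tyrosine kinase inside it. Secreted Fgfs bind them together with heparan sulfate, the kinases phosphorylate each other and the adaptor Frs2, and Grb2 and Sos then activate the Ras-MAPK chain. In the hindbrain, Fgf signals act in the patterning of segments and, later, in keeping progenitors at segment centres from becoming neurons. The Fgfrl1 proteins bind ligand and heparin but lack the kinase, and have been described as decoys.

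The libraries held 59800936 to 69801072 counts in Cnt and 52900433 to 55915518 in Fgf20aHOM. Markers of the hindbrain segments summed to 648.3 to 760.2 CPM (counts scaled to library size) in Cnt and 825.6 to 1112 CPM in Fgf20aHOM, with all 9 matched markers detected in every library. Markers of the otic vesicle summed to 195.7 to 626.5 CPM in Cnt and 139.5 to 148.4 CPM in Fgf20aHOM, and those of the neural crest to 57.25 to 106.1 CPM and 132.5 to 148.1 CPM. None of these 3 sums overlapped between the groups, while those of the other lists among the 12 marker lists did. The difference in the otic sum lay mainly in stm, oc90 and otomp, which had log2 fold changes of -2.81, -1.17 and -1.64. Those of eya1 and pax8 were 0.45 and 0.82, and tecta and pax5 were at 0 in some libraries. In each mutant library eya1 was the highest otic marker, at 3797 to 4643 normalised counts. The part of these markers in the receptor values was not tested. In such bulk samples, fewer cells of a type and less RNA per cell cannot be told apart. The mutation was not visible as a loss of transcript: the 2 IDs named FGF20 had log2 fold changes of 0.19 (ENSDARG00000007356, adjusted p = 0.893, edgeR) and -0.33 (ENSDARG00000086070, adjusted p = 0.805, edgeR). Which of them is fgf20a could not be told from the names.

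None of the 5 receptor genes was called changed in Fgf20aHOM. To be called, a gene had to reach an adjusted p of 0.01 or below, differ at least 2-fold, and exceed 30 normalised counts in every library of 1 group or the other. Over the whole table, 86 of 19589 genes tested met these limits (0.439%), so a set of 5 genes could be without a call at the background rate. In edgeR, the number of receptor genes with an unadjusted p under 0.05 was also 0 of 5. Of all genes tested, 15.6% fell under that limit (15.9% in DESeq2). With the looser limit of an adjusted p of 0.05 alone, 1.51% of all genes tested passed and again 0 of 5 receptor genes. DESeq2 called 0 of 5 receptor genes, and 634 of 20571 genes in all (3.08%), and limma-voom 0 of 5 and 0.505% of all genes. In limma-voom, fgfrl1b had an unadjusted p of 0.04875 (log2 fold change 1.13), which became 0.253 after adjustment. The normalised counts of the groups overlapped for all 5 genes and for both FGFR1 IDs, where 17.5% of all genes tested had groups that did not overlap.

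Among the receptors with a kinase, fgfr4 had the steadiest level. In mouse, Fgfr4 in liver answers to a gut-derived Fgf and restrains bile acid synthesis. Its normalised counts in zebrafish hindbrain were 22237, 26976, 18843 and 18539 in Cnt 1 to 4 and 16454, 20445 and 22320 in F2, F3 and F4. The highest library exceeded the lowest by 1.64-fold, and 2 of the mutant libraries lay within the range of Cnt. The means were 21649 ± 3927 (SD, n = 4) in Cnt and 19740 ± 2996 (SD, n = 3) in Fgf20aHOM. The log2 fold change was -0.13 ± 0.21 (SE; 95% interval -0.61 to 0.34; adjusted p = 0.807, edgeR). The whole interval thus lay within a 2-fold change in either direction.

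The fgfr3 gene varied more between embryos. In mouse and chick, Fgfr3 marks progenitors of the ventricular zone and later astrocytes. Normalised counts of fgfr3 were 5513, 10696, 8688 and 3892 in Cnt 1 to 4 and 9646, 9441 and 5954 in F2, F3 and F4. Cnt 2 was the highest of all libraries and Cnt 4 the lowest, so that the Cnt range enclosed all 3 mutant libraries. The means were 7197 ± 3067 (SD, n = 4) in Cnt and 8347 ± 2075 (SD, n = 3) in Fgf20aHOM. This was a log2 fold change of 0.21 ± 0.34 (SE; 95% interval -0.55 to 0.98; adjusted p = 0.807, edgeR). A 2-fold rise lay just outside this interval, and a 2-fold fall well outside it.

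The third kinase receptor with a single ID, fgfr2, has in mammals an isoform of epithelia and another of mesenchyme, which bind different ligands. The table sums such isoforms. Normalised counts of fgfr2 were 2734, 3526, 3997 and 2052 in Cnt 1 to 4 and 4203, 2817 and 2390 in F2, F3 and F4. F2 was slightly above all Cnt libraries, and F3 and F4 lay among them. The means were 3077 ± 860 (SD, n = 4) and 3137 ± 948 (SD, n = 3), and the log2 fold change was 0.03 ± 0.29 (SE; 95% interval -0.63 to 0.68; adjusted p = 0.975, edgeR). Its sign turned when single libraries were left out, with values from -0.24 (without F2) to 0.19 (without F4).

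The intervals of fgfr2, fgfr3 and fgfr4 were within 2-fold, that is 3 of 5 receptor genes, where 24.1% of all genes tested had such an interval. That share covers tested genes of all levels. The intervals bounded the change of these 3 genes, and changes inside each interval could not be told from none. No detection limit was computed.

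**Figure D1:**
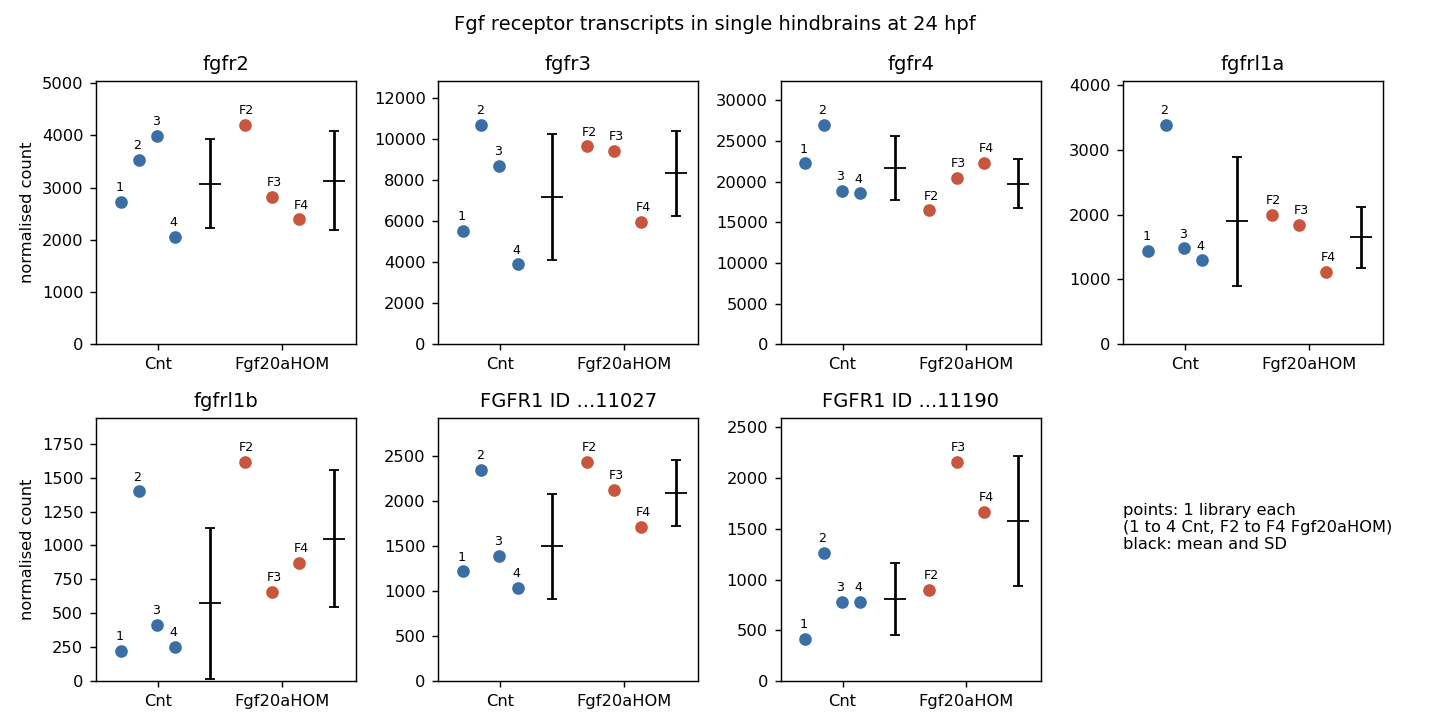
Normalised counts of the 5 receptor genes and the 2 FGFR1 IDs in each library. Each panel is 1 gene with its own axis from 0, points are single libraries (4 Cnt in blue, 3 Fgf20aHOM in red) and black bars give the mean and SD. The groups overlap in all 7 panels, and Cnt 2 is the highest Cnt library in 6 of them.

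Of the receptors without a kinase, fgfrl1a had no stable direction. In mouse, loss of Fgfrl1 leaves the diaphragm too weak for breathing. Normalised counts of fgfrl1a were 1438, 3385, 1479 and 1293 in Cnt 1 to 4 and 1993, 1847 and 1114 in F2, F3 and F4. Cnt 2 stood apart, and the other Cnt libraries fell between F4 and F3. The means were 1899 ± 994 (SD, n = 4) and 1652 ± 471 (SD, n = 3), and the log2 fold change was -0.20 ± 0.38 (SE; 95% interval -1.05 to 0.65; adjusted p = 0.839, edgeR). Without Cnt 2 it was 0.23 (adjusted p = 0.691, edgeR) and without F4 it was 0.02 (adjusted p = 0.990, edgeR), both on the other side of 0.

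The paralog fgfrl1b was the most variable receptor gene, with the highest library 7.42-fold above the lowest. Its normalised counts were 218.3, 1399, 414.9 and 253.9 in Cnt 1 to 4 and 1619, 657.9 and 869.6 in F2, F3 and F4. All 3 mutant libraries exceeded Cnt 1, 3 and 4, and Cnt 2 exceeded F3 and F4. The means were 571.4 ± 558.0 (SD, n = 4) and 1049 ± 505 (SD, n = 3). The log2 fold change was 0.88 ± 0.63 (SE; 95% interval -0.54 to 2.29; adjusted p = 0.546, edgeR). The size of this value rested on 2 libraries, since it was 1.82 without Cnt 2 (adjusted p = 0.102, edgeR) and 0.42 without F2 (adjusted p = 0.925, edgeR). None of these passed the limit.

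The 2 IDs that share the symbol FGFR1 both had higher means in Fgf20aHOM. In mouse, Fgfr1 is needed for gastrulation and for the tissue at the midbrain-hindbrain boundary. Normalised counts of ENSDARG00000011027 were 1215, 2344, 1388 and 1035 in Cnt 1 to 4 and 2433, 2120 and 1708 in F2, F3 and F4. All mutant libraries exceeded Cnt 1, 3 and 4, and Cnt 2 lay between F2 and F3. Its log2 fold change was 0.48 ± 0.31 (SE; 95% interval -0.21 to 1.17; adjusted p = 0.496, edgeR). It was 0.78 without Cnt 2 (adjusted p = 0.176, edgeR).

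Normalised counts of ENSDARG00000011190 were 410.4, 1265, 778.7 and 778.1 in Cnt 1 to 4 and 897.0, 2163 and 1667 in F2, F3 and F4. F3 and F4 were above every Cnt library, and F2 was below Cnt 2. The means were 808.0 ± 350.5 (SD, n = 4) and 1576 ± 638 (SD, n = 3), with a log2 fold change of 0.96 ± 0.41 (SE; 95% interval 0.05 to 1.87). This was the only one of the 7 receptor IDs with an interval that did not include 0 in edgeR. The unadjusted p of 0.0403 became 0.292 after adjustment over all genes tested (edgeR), 0.195 in DESeq2 and 0.0932 in limma-voom, so it was not called by any of them. As RSEM shares reads between similar genes, the split of counts between these 2 IDs is uncertain. With their counts merged into 1 gene, an alternative chosen after seeing the data, the log2 fold change was 0.67 (adjusted p = 0.313, edgeR).

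A further ID, fgfr1bl (ENSDARG00000104015), was singled out after its values were seen and is not among the 7 names. It had 0 counts in each of the 4 Cnt libraries, and 268, 2 and 1097 counts in F2, F3 and F4. The floor of 3 counts corresponds to at most 0.0506 CPM in a Cnt library, while F2 and F4 had 4.48 and 19.9 CPM. The mutant libraries thus differed widely from each other, and F3 was no higher than that floor. The gene did not pass the count filter of edgeR. In DESeq2 its adjusted p was 0.00171, but it did not meet the limit of 30 normalised counts in every library of a group. A pattern of this kind was not particular to it: 21 IDs had 0 counts in all Cnt libraries and at least 100 counts in a mutant library, and 30 IDs had the opposite. Merging its counts with both FGFR1 IDs, again chosen after seeing the data, gave a log2 fold change of 0.85 (adjusted p = 0.205, edgeR).

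**Figure D2:**
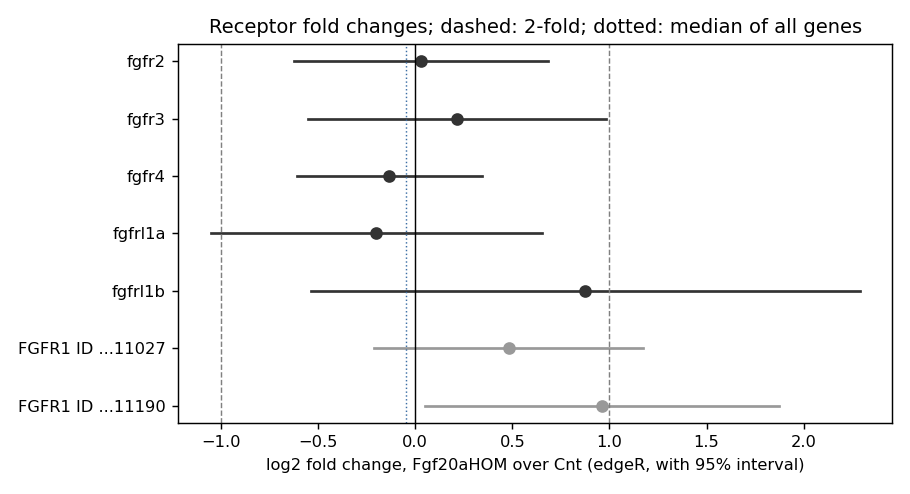
Log2 fold changes of Fgf20aHOM over Cnt from edgeR, with 95% intervals, for the 5 receptor genes (black) and the 2 FGFR1 IDs (grey). Dashed lines mark a 2-fold change and the dotted line the median of all genes tested, -0.05. The intervals of fgfr2, fgfr3 and fgfr4 stay between the dashed lines, and that of fgfrl1b is the widest.

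The make-up of the receptor transcripts was then compared, as the share of each ID among the counts of the 7 receptor IDs in a library. Counts were not divided by transcript length, so a share tells how a gene compares between libraries and not how it ranks among the receptors. Counting error was small, with 95% Wilson intervals of at most 0.546 percentage points to either side, which cover counting error only. The share of fgfr4 was 65.9%, 54.4%, 52.95% and 66.6% in Cnt 1 to 4 and 44.2%, 51.8% and 62.0% in F2, F3 and F4. F2 and F3 were thus below all Cnt libraries, and F4 was among them. The mean was 59.95% ± 7.3 (SD, n = 4) in Cnt and 52.6% ± 8.9 (SD, n = 3) in Fgf20aHOM (exact two-sided permutation p = 0.229).

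Both FGFR1 IDs together took 6.17% ± 1.03 of the receptor counts in Cnt (SD, n = 4), with a range of 4.81% to 7.28%. In Fgf20aHOM they took 9.72% ± 1.00 (SD, n = 3), with a range of 8.94% to 10.8%. The groups did not overlap. The permutation test used here doubles the smaller tail over 35 splits. In that form it cannot give a p below 0.0571, which is the value obtained, so it could not reach 0.05. For single IDs, only the share of ENSDARG00000011027 did not overlap between the groups (exact permutation p = 0.0571). It was 3.60% to 4.73% in Cnt and 4.74% to 6.53% in Fgf20aHOM, a narrow margin. Among kinase receptors only, the groups overlapped for this ID, with an exact permutation p of 0.114. For both IDs together the exact permutation p stayed at 0.0571 there. How often shares of other genes do not overlap was not computed. After Benjamini-Hochberg adjustment over the 7 IDs, the lowest of the exact permutation p-values was 0.400.

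The shares of the other receptors overlapped. The mean share of fgfr3 was 19.1% ± 4.8 in Cnt and 22.1% ± 4.9 in Fgf20aHOM, with an exact permutation p of 0.400. That of fgfrl1b was 1.39% ± 0.98 and 2.81% ± 1.38, with an exact permutation p of 0.171. The shares of fgfr2 (8.45% and 8.35%) and fgfrl1a (4.97% and 4.37%) were closer, and both turned direction when single libraries were left out.

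**Figure D3:**
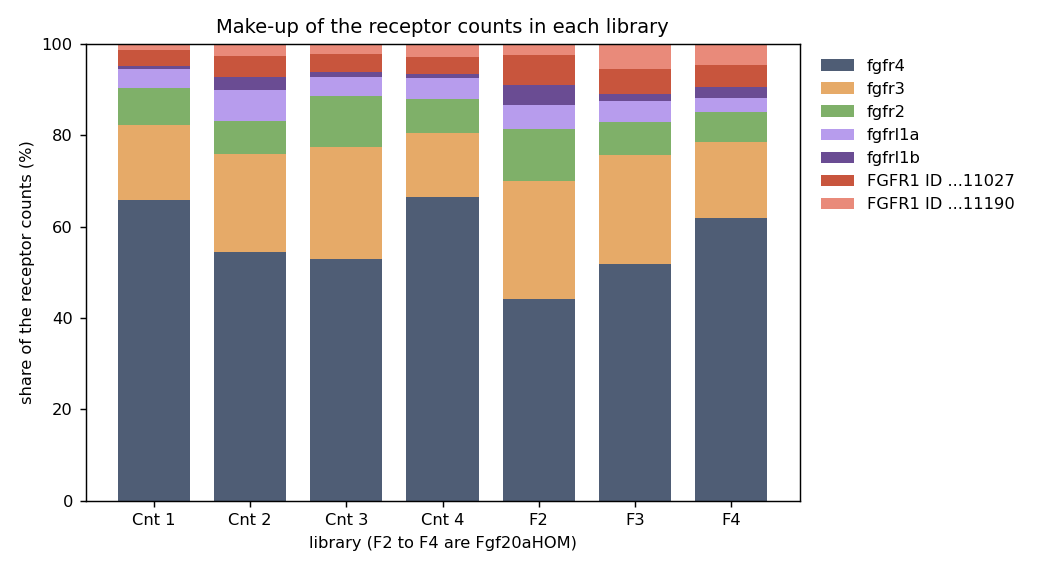
Make-up of the receptor counts in each of the 7 libraries, in percent of the counts of the 7 receptor IDs. Each bar is a library and each colour a gene or ID. The fgfr4 segment runs from 44.2% in F2 to 66.6% in Cnt 4, and the summed width of both red segments of FGFR1 at the top is larger in the 3 mutant libraries than in the 4 Cnt libraries.

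For all 5 receptor genes, the difference between the group means was smaller than the SD of either group. Cnt 2 was the highest Cnt library for 4 of 5 receptor genes and Cnt 4 the lowest for 4 of 5. How often this holds over all genes tested was not computed. On the log2 CPM scale, relative to the mean of each ID over the libraries, Cnt 2 was above the mean for 7 of 7 receptor IDs and Cnt 4 for 0 of 7. The mean over the IDs was -0.55 in Cnt 1, 0.60 in Cnt 2, -0.12 in Cnt 3 and -0.61 in Cnt 4. In the mutants it was 0.37 in F2, 0.28 in F3 and 0.03 in F4, all within the range of Cnt. The coefficient of variation was larger in Cnt than in Fgf20aHOM for 4 of 5 receptor genes, which was not tested.

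The summed level of the 7 receptor IDs gave a similar order of embryos. It was 565.8, 831.0, 596.3 and 466.6 CPM in Cnt 1 to 4, and 624.1, 661.7 and 603.6 CPM in F2, F3 and F4. The mutants lay closer to each other than the Cnt embryos, and within their range. Against genes with a mean level within 2-fold of their own, the spread of fgfr3 within groups was at the 92.3rd percentile, that of fgfrl1b at the 92.1st and that of fgfrl1a at the 83.0th. The spread of fgfr2 was at the 67.2nd percentile and that of fgfr4 at the 25.2nd.

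Markers of tissues around the hindbrain differed between the same Cnt embryos. The 6 epidermis markers summed to between 1224 and 26030 CPM in Cnt and between 2901 and 9977 CPM in Fgf20aHOM. Most of each sum came from krt4, cyt1 and cyt1l. No epidermis marker was at 0 in any library. Of these 6 markers, 5 were lowest in Cnt 2 among the Cnt libraries. Higher in both Cnt 1 and Cnt 4 than in Cnt 2 and Cnt 3 were 4 of them, krt4, krt5, cyt1 and cyt1l. The other markers, tp63 and epcam, did not have this order. Normalised counts of tp63 were lowest in Cnt 4 (811.2), and those of epcam were lower in Cnt 1 (4093) than in Cnt 3 (6165). Of the 7 receptor IDs, 6 were lower in both Cnt 1 and Cnt 4 than in Cnt 2 and Cnt 3, the exception being fgfr4. For ENSDARG00000011190 the margin was narrow, with normalised counts of 778.1 in Cnt 4 and 778.7 in Cnt 3. That of fgfrl1a was also small, with 1438 in Cnt 1 and 1479 in Cnt 3. The share of all genes tested with this order was not computed, so it cannot be read as a trait of the receptors. The 6 head mesenchyme markers, such as twist1a, were all highest in Cnt 2 among the Cnt libraries. Their sum was 122.6 to 388.3 CPM in Cnt and 177.4 to 219.7 CPM in Fgf20aHOM, with none at 0. The 3 vessel markers were all highest in Cnt 2 too, and all 3 were lower in both Cnt 1 and Cnt 4 than in Cnt 2 and Cnt 3, as were 4 of 6 head mesenchyme, 3 of 4 notochord, 3 of 7 otic vesicle and 3 of 6 neural crest markers. The vessel markers summed to 38.9 to 146.6 CPM in Cnt and 73.6 to 106.2 CPM in Fgf20aHOM. Of hindbrain markers, 5 of 8 neural progenitor, 3 of 6 neuron and 3 of 9 segment ones had their Cnt maximum in Cnt 2. Lower in both Cnt 1 and Cnt 4 than in Cnt 2 and Cnt 3 were 1, 2 and 2 of them. The neural progenitor and neuron sums were also highest in Cnt 2 among the Cnt libraries, at 3228 and 735.6 CPM. The part of any of these cell types in the receptor values was not tested.

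**Figure D4:**
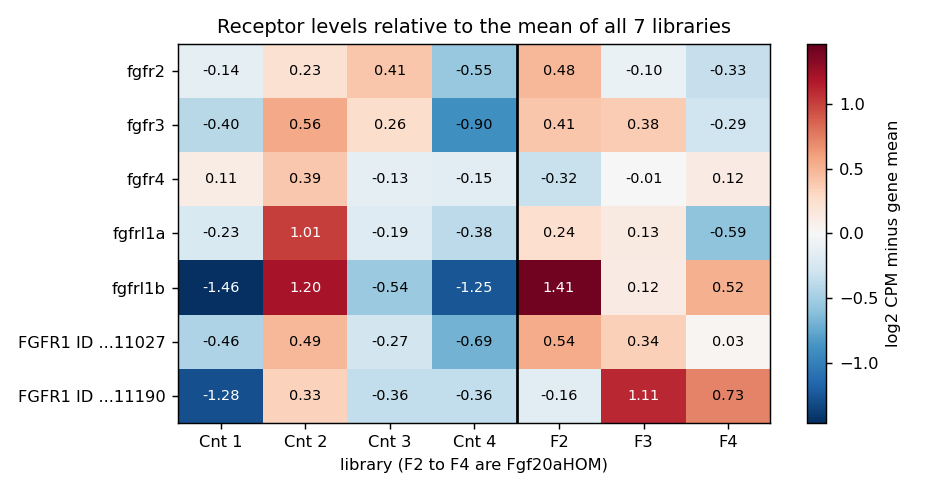
Level of each receptor ID in each library as log2 CPM minus the mean of that ID over the 7 libraries, with the value written in each cell (red above, blue below the mean). The column of Cnt 2 is above 0 for 7 of 7 IDs and that of Cnt 4 for 0 of 7, and the fgfr4 row holds the smallest deviations.

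For each receptor, the gene with the most similar pattern over the 7 libraries was sought among 9090 other genes with a symbol and a mean of at least 10 CPM. Likeness was the Pearson r of log2 CPM, and is a description, since the genes share libraries and depth and the best of many was taken. The closest gene was ERAL1 for fgfr2 (r = 0.98, Spearman rho = 0.96) and ZFP36L2 for fgfr3 (r = 0.996, rho = 0.96). It was PHF21A for fgfr4 (r = 0.98, rho = 0.96), RPL4 for fgfrl1a (r = 0.99, rho = 0.96) and septin15 for fgfrl1b (r = 0.99, rho = 1). Among these 5 receptor genes, the number of genes with r above 0.9 was lowest for fgfr4, at 43, and highest for fgfrl1b, at 158. For the FGFR1 IDs it was 13 (ENSDARG00000011190, closest gene ARFIP2) and 249 (ENSDARG00000011027, closest gene TRAF4).

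The genes around the receptors in the pathway were described by 7 lists. Of all genes tested, 47.3% had a log2 fold change above 0 and the median was -0.05, while 3 of 5 receptor genes were above 0 with a median of 0.03. None of the 7 lists held a gene called by edgeR, where 0.439% of all genes tested were called. Lists of this size could be without a call at that rate. The counts at an unadjusted p under 0.05 are given for each list, against 15.6% of all genes tested. Groups did not overlap in 17.5% of all genes tested. Genes named below for the lowest p of a list are likely to be among such genes by that choice.

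Among the ligands, 7 of 17 tested genes were above 0 and the median log2 fold change was -0.13, with 0 genes at an unadjusted p under 0.05. The ligand with the lowest p was fgf22, at 8.75 to 19.5 normalised counts in Cnt and 0 to 10.8 in Fgf20aHOM (adjusted p = 0.623, edgeR), a level too low to judge. Among the co-receptors and proteoglycans, 8 of 13 genes were above 0 and the median was 0.28, with 3 genes at an unadjusted p under 0.05. The lowest p was that of agrn, which encodes the heparan sulfate proteoglycan agrin of basement membranes and the neuromuscular junction. Its normalised counts were 3848, 3619, 4563 and 2989 in Cnt and 10624, 6009 and 5698 in Fgf20aHOM, without overlap. For agrn the log2 fold change was 0.99 ± 0.27 (SE; adjusted p = 0.115, edgeR).

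Of the enzymes that make or trim heparan sulfate, 11 of 17 were above 0 with a median log2 fold change of 0.44, and 5 had an unadjusted p under 0.05. The lowest p was that of sulf2b, a sulfatase that removes sulfate groups from heparan sulfate outside the cell. Its normalised counts were 1767, 2803, 1592 and 2166 in Cnt and 6400, 4509 and 3037 in Fgf20aHOM, again without overlap. For sulf2b the log2 fold change was 1.16 ± 0.30 (SE; adjusted p = 0.100, edgeR).

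Below the receptors, 13 of 15 adaptors and proximal effectors were above 0, with a median log2 fold change of 0.39 and 5 genes at an unadjusted p under 0.05. The lowest p belonged to sos1, the exchange factor that loads Ras with GTP. Its normalised counts were 68.4, 71.4, 109.5 and 55.4 in Cnt and 257.1, 291.5 and 246.9 in Fgf20aHOM, so that every mutant library was above every Cnt library. For sos1 this gave a log2 fold change of 1.80 ± 0.46 (SE). After adjustment its p was 0.100 in edgeR but 0.0010 in DESeq2. It was thus called by DESeq2 and not by edgeR. It was the only DESeq2 call among the 133 IDs of the 7 lists. Over all genes, DESeq2 called 634 of 20571 (3.08%), so the lists were not rich in calls.

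In the Ras-MAPK kinase chain, 5 of 14 genes were above 0 and the median log2 fold change was -0.19. The 1 gene with an unadjusted p under 0.05 was kras, a Ras GTPase. Its normalised counts were 6182, 4767, 6495 and 6240 in Cnt and 3236, 4178 and 4616 in Fgf20aHOM, without overlap (log2 fold change -0.56 ± 0.22, SE; adjusted p = 0.250, edgeR). The summed level of the chain was 512.4 to 572.2 CPM in Cnt and 475.3 to 501.1 CPM in Fgf20aHOM.

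Among targets and feedback inhibitors of the pathway, which are commonly read as a sign of receptor activity, 8 of 14 genes were above 0 with a median of 0.17, and 0 had an unadjusted p under 0.05. Their summed level was 376.8 to 799.5 CPM in Cnt and 499.0 to 615.7 CPM in Fgf20aHOM. Within Cnt it was highest in Cnt 2 and lowest in Cnt 4, as for the receptors. This was not particular to these targets. The sums of other receptor tyrosine kinases, heparan sulfate enzymes, and neuron, vessel and midbrain markers had the same highest and lowest Cnt library. For etv5b, a member of this list, the log2 fold change was -0.32 (adjusted p = 0.728, edgeR). By in situ hybridisation, the paper reports loss of etv5b at segment centres in fgf20a mutants. It names a complex expression, also in otic vesicle and cranial ganglia, as the likely reason why its bulk screen missed this gene. Bulk values do not show where in the tissue a gene was expressed. The target or inhibitor with the lowest p was spred3, of a family that restrains Ras-MAPK signalling. Its log2 fold change was 1.16 ± 0.57 (SE; adjusted p = 0.361, edgeR). Its groups overlapped.

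Of other receptor tyrosine kinases, 24 of 30 were above 0 with a median log2 fold change of 0.43, and 2 had an unadjusted p under 0.05. The lowest p was that of ror2, a receptor for Wnt ligands, with 539.8 to 1325 normalised counts in Cnt and 1468 to 1993 in Fgf20aHOM. The log2 fold change of ror2 was 0.82 ± 0.32 (SE; adjusted p = 0.253, edgeR). The 5 Fgf receptor genes and these kinases were not tested against each other.

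**Figure D5:**
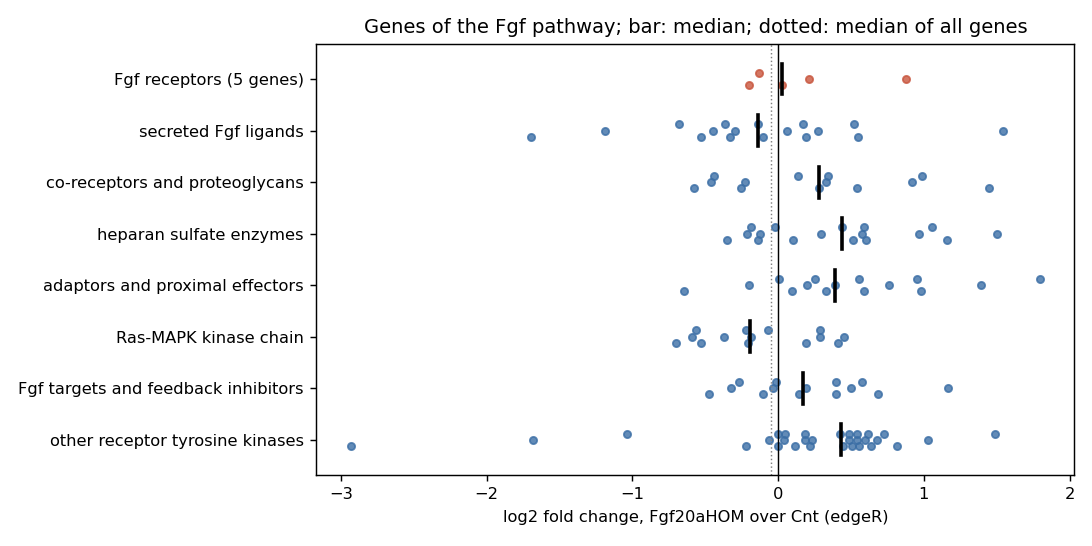
Log2 fold changes of Fgf20aHOM over Cnt (edgeR) for the 5 receptor genes (red) and the tested genes of the 7 pathway lists (blue). Each point is a gene, black bars are medians and the dotted line is the median of all genes tested, -0.05. The list medians run from -0.19 for the Ras-MAPK kinase chain to 0.44 for the heparan sulfate enzymes, and no point shown was called by edgeR.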

How the data were processed

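Total RNA of 7 single hindbrain dissections was amplified (NuGEN Ovation V2), made into Nextera XT libraries and sequenced from both ends. The submitters' processing notes name STAR 2.5.1b, RSEM 1.2.31 and GRCz10. The deposited values are estimated counts per gene (RSEM expected counts), which the authors rounded to whole numbers without scaling for depth. The unit had been planned as counts; the rounded estimated counts were analysed with count tests. RSEM shares reads between similar genes, so paralogs are less certain. Strand use and molecular identifiers are not given in the sources used here. The numbers of the mutant columns differ from those of the sample titles, so only their group is known.

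The members, lists and tests were chosen with earlier results of these data known. Symbols were matched for 26350 of 32189 IDs (81.9%). The pathway lists held 145 entries, giving 133 IDs. Testing used edgeR 4.0.16 in R 4.3.3 (quasi-likelihood F test, TMM, filterByExpr, robust, genotype as the only term), two-sided, with Benjamini-Hochberg adjustment over 19589 genes. Normalised counts are counts over the TMM-scaled library size, times its mean. SEs were derived from the F statistic. The edgeR p-values set the difference between groups against the spread between these single embryos. The spread of each gene is drawn towards the trend over all genes tested. The test was checked on simulated data. Shares were compared by exact permutation over 35 splits, with the smaller tail doubled.

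Named beside the receptors were both FGF20 IDs, the most alike gene of each receptor and, from each pathway list, called genes and the gene with the lowest p. Exceptions were fgfr1bl and etv5b, the latter named because the paper reports on it. DESeq2 1.42.0, limma-voom (limma 3.58.1), other scalings and filters, edgeR without robust estimation and leaving out each library were the alternatives. No gene lengths or sequences were used here.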

Additional observations from a re-analysis of the deposited data

Results flagged for a closer look

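In the 4 Cnt libraries, Cnt 2 stood apart from the others for both receptors without a kinase. For fgfrl1a it had a normalised count of 3385, where the other Cnt libraries had 1293 to 1479. For fgfrl1b it had 1399, where the others had 218.3 to 414.9. The gap to the nearest library was 0.911 of the whole range for fgfrl1a and 0.833 for fgfrl1b, above Dixon's 95% critical value for 4 samples. Of 14 measures examined, 2 passed this value, both of them normalised counts and not shares. At about 1 in 20, 0.7 would pass by chance. The measures are counts and shares of the same IDs in the same libraries, so that figure is only a rough guide. Among the Cnt libraries, all head mesenchyme and vessel markers were highest in Cnt 2 as well. So were 5 of 8 neural progenitor and 3 of 6 neuron markers. The part of these cell types was not tested.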

How the results depend on the processing

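No receptor gene was called under any alternative run. The log2 fold changes of fgfr3, fgfr4, fgfrl1b and both FGFR1 IDs kept their sign throughout, with leave-one-out ranges of 0.05 to 0.47, -0.23 to -0.01, 0.42 to 1.82, 0.36 to 0.78 and 0.69 to 1.26. That of fgfr2 turned to -0.10 with limma-voom, and leaving out 1 library gave -0.24 to 0.19 for fgfr2 and -0.36 to 0.23 for fgfrl1a. It was -0.03 without Cnt 1, -0.07 without Cnt 4 and -0.24 without F2 for fgfr2, and 0.23 without Cnt 2 and 0.02 without F4 for fgfrl1a. The difference in the share of fgfr2, -0.10 percentage points, was 0.032 among kinase receptors only, and ran from -1.57 without F2 to 0.825 without Cnt 3, also turning without F3 (0.508) or F4 (0.756). That of fgfrl1a ran from -1.09 without F2 to 0.0437 without F4, also turning without Cnt 2 (0.0219). The cause of these turns was not tested.

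Over all genes, 86 were called by edgeR, 634 by DESeq2 (86 of them shared), 170 with at least 1 CPM in every library of a group (85 shared), and 15 to 69 with 1 library left out (15 without F3, 69 without F2). No paired analysis was possible because the libraries are single embryos of separate wild-type and mutant crosses, with nothing that ties one to another. Shares per kb were not run, since no transcript lengths were used.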
